A study of Equus caballus with 4 samples.

Results

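Differentiating muscle cells break down their own proteins and organelles by the proteasome and by autophagy, and 10 genes known for these routes in wasting muscle are described here. They are the ubiquitin ligases FBXO32 and TRIM63, the transcription factors FOXO1 and FOXO3, the autophagosome proteins MAP1LC3B and GABARAPL1, the cargo receptors SQSTM1 and BNIP3, the lysosomal protease CTSL and the nucleation factor BECN1. A gene was taken as a member where a noncontrol probe of the arrays carried its symbol as gene name, ignoring case. By this rule 8 of the 10 genes were found, among 13350 genes with a symbol in the files, and they had 27 of 43603 noncontrol probes. BNIP3 was found by its gene number in the files, so its values are given but it is not in the counts of members. CTSL had no probe under its symbol, an older symbol, a gene number or an accession, and was not analysed here.

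When insulin and growth factor signals through the kinase AKT are strong, FOXO proteins are phosphorylated and kept out of the nucleus. When those signals are weak, FOXO proteins enter the nucleus and switch on genes of protein breakdown, among them ubiquitin ligases and autophagy genes. Ubiquitin ligases tag proteins for the proteasome, whereas autophagy encloses parts of the cell in a double membrane and delivers them to the lysosome. Both routes are known to waste muscle in disuse and fasting, and both also serve the rebuilding of the cell as myoblasts fuse into myotubes.

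Satellite cells, the stem cells of muscle, had been cultured from horse semitendinosus muscle and were on day 3 of differentiation, in medium with 2% horse serum. GO-treated cells had received 0.125 µM gamma-oryzanol (GO), a mixture of plant sterol ferulates from rice bran oil, in DMSO for 24 h. Control cells had received the same amount of DMSO (0.04 µl/ml) without GO. On each of 4 arrays GO-treated cells supplied the Cy5 RNA and control cells the Cy3 RNA, both with an RNA integrity number of at least 9.2. GO was in Cy5 on all 4 arrays, so dye and GO cannot be told apart, and all 4 arrays were on 1 slide. Cultures of several horses had been scored and 1 line was kept for the later work. The labels call the arrays biological replicates without saying whether they stand for different horses or for separate cultures of that line, so the p-values measure only the spread between these 4 arrays.

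An array had 45220 spots, 43803 of them noncontrol. On arrays 1 to 4 the share of these spots well above background was 66.9, 68.9, 66.6 and 63.5% for control cells. For GO-treated cells it was 67.0, 66.5, 62 and 57.4%, so arrays 3 and 4 held more dim spots in that channel. No spot was saturated (0 on each array). Precision is limited by there being 4 arrays. Signals below are processed fluorescence intensities without a unit, and a log2 ratio compares GO-treated with control cells on 1 array, with 0 for no difference. A probe was tested where it was well above background in 1 channel on all 4 arrays, and it was called where its adjusted p was 0.05 or less and its fold change 1.3 or more, which is 0.38 on the log2 scale.

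The cultures carried markers of the labelled cell type. Of 14 listed myogenic markers 10 were tested, and all 10 were well above background in both channels on all 4 arrays. Of the adipocyte markers 5 of 6 had a probe and of the endothelial markers 6 of 7 had one, and 0 genes of either list could be tested. Some markers of other cells were present too. Of 9 fibroblast markers 8 had a probe and 7 were tested. Of 10 leukocyte markers 8 had a probe and 4 were tested, and of 6 pericyte or smooth muscle markers 5 and 2. Those tested were all well above background in both channels on all 4 arrays. The summed signal in control cells was 303076, 379176, 385893 and 284098 for the myogenic and 220277, 215624, 233531 and 166726 for the fibroblast markers on arrays 1 to 4. The share of each cell type was not measured.

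By the brightest tested probe of each gene, 4 of the 8 members were called, 1 higher and 3 lower in GO-treated cells. Over all genes 824 of 9501 were called, or 8.67%, with 3.3% higher and 5.37% lower. Of the 27 member probes 26 were tested and 7 were called, beside 2399 of 26832 probes over the whole array, or 8.94%. TRIM63 alone gave 4 of these 7, from probes that overlap and are not separate evidence. The difference between these shares was not tested. FBXO32 was the member with a higher signal, and TRIM63, FOXO1 and FOXO3 had lower signals. The count was smaller with an array left out: without arrays 1, 2, 3 and 4 in turn, 3, 1, 1 and 2 members were called, and without array 2 the probes called numbered 1566. TRIM63 was called in each of these 4 cases.

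**Figure D1:**
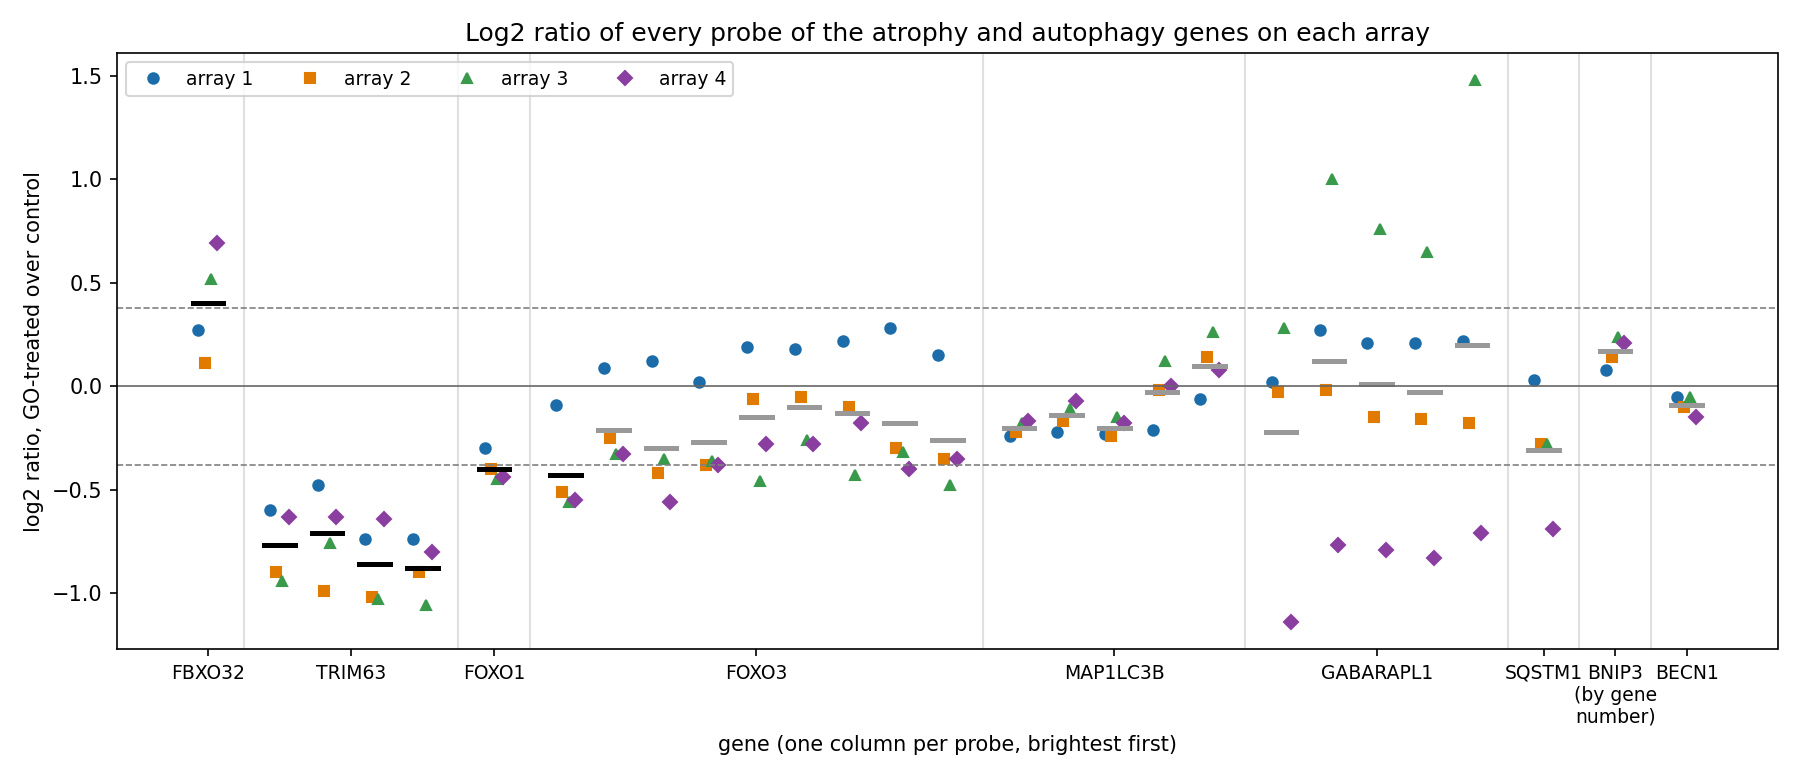
Log2 ratio, GO-treated over control (vertical axis), for every probe of each gene (1 column per probe, brightest first), with a symbol for each of the 4 arrays, a bar at the mean (black where called) and dashed lines at 0.38 and -0.38. All TRIM63 points lie below zero, the FOXO3 points of array 1 lie above those of the other arrays, and the GABARAPL1 points of arrays 3 and 4 lie far apart.

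FBXO32, also known as atrogin-1, is the part of a ubiquitin ligase complex that binds the proteins to be tagged. Its probe at chr9:61087770-61087829 of EquCab1 (minus strand) had signals of 391, 255, 352 and 313 in GO-treated cells and 324, 236, 245 and 194 in control cells on arrays 1 to 4. The GO channel was the higher on every array, but the ranges of the channels overlapped, from 255 to 391 and from 194 to 324. The log2 ratios were 0.27, 0.11, 0.52 and 0.69, larger on arrays 3 and 4 than on arrays 1 and 2. Their mean was 0.40 ± 0.26 (SD, n = 4), with a 95% interval of 0.15 to 0.65 and a fold change of 1.32. FBXO32 thus rose just past both thresholds, with an adjusted p = 0.0419 (limma, Benjamini-Hochberg) and a higher signal on 4 of 4 arrays. This call was lost without any 1 of the arrays, at 0.44, 0.50, 0.36 and 0.30 without arrays 1 to 4 (limma adjusted p = 0.0713, 0.0545, 0.137 and 0.0984), each value higher in all arrays kept. It was also lost after normexp and loess (0.28), after median centring without lowess (0.34), with array weights (0.36), with dim probes kept (adjusted p = 0.164), without the array block (0.421) and in the plain one-sample test (0.184).

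TRIM63, also known as MuRF1, is a ubiquitin ligase of the sarcomere that is known to tag myosin for breakdown. It had 4 probes on the plus strand of chromosome 2 of EquCab1, from chr2:27768741-27768800 to chr2:27768791-27768850. The first and the last in position are shown because every measurement of this gene comes from this short stretch, and the capitals mark the 10 bases that all 4 probes share.
TRIM63 probe A_69_P086789: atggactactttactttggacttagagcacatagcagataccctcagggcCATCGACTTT
TRIM63 probe A_69_P086786: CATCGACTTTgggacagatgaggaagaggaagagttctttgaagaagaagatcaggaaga

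The brightest TRIM63 probe (A_69_P086789) gave signals of 235, 165, 149 and 156 in GO-treated cells and 357, 307, 286 and 242 in control cells on arrays 1 to 4. The channels did not overlap: the highest GO signal, 235, lay below the lowest control signal, 242. On the same arrays the log2 ratios were -0.60, -0.90, -0.94 and -0.63, lowest on arrays 2 and 3. The mean log2 ratio was -0.77 ± 0.18 (SD, n = 4), with a 95% interval of -0.96 to -0.58, so that the GO signal was 58.7% of the control signal. TRIM63 fell past both thresholds (adjusted p = 0.0038, limma, Benjamini-Hochberg), on 4 of 4 arrays. In bulk RNA such as this, fewer cells of a type and less RNA per cell cannot be told apart. The other TRIM63 probes gave -0.86 ± 0.20, -0.71 ± 0.22 and -0.88 ± 0.14 (SD, n = 4), and all 4 probes were called. Probe by probe the ratios lay between -0.74 and -0.48 on array 1, -1.02 and -0.90 on array 2, -1.06 and -0.76 on array 3, and -0.80 and -0.63 on array 4. The probes overlap and share their target, so they are not separate evidence. The brightest probe was not called without the array block (adjusted p = 0.0694, limma) or in the plain one-sample test (adjusted p = 0.0725), and was called under the 11 other settings, with values of -0.83 to -0.56. Without the array block the probe A_69_P086786 was called (adjusted p = 0.0253, limma), and A_69_P086788 and A_69_P086787 were not (0.0526 and 0.176). With dim probes kept A_69_P086787 was not called (0.0577, limma). None of the 4 probes was called in the plain one-sample test (adjusted p = 0.0574 to 0.0888).

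Other genes of the ubiquitin and proteasome route, which add ubiquitin, remove it or carry tagged proteins, were given by a list of 23, of which 20 had a probe and 17 were tested. Of these 17, 0 were higher and 2 were lower, and 7 had an unadjusted p under 0.05 by limma, as had 3297 of all 9501 tested genes (34.7%). The list median was -0.07, beside 0.00 for all tested genes. Both called genes are relatives of TRIM63. TRIM55, or MuRF2, had log2 ratios of -0.76, -0.47, -0.52 and -0.33 on arrays 1 to 4 and TRIM54, or MuRF3, had -0.23, -0.53, -0.49 and -0.79. Each was below zero on every array, TRIM55 most on array 1 and TRIM54 most on array 4. TRIM55 fell with a mean of -0.52 ± 0.18 (SD, n = 4; adjusted p = 0.0102 from limma, lower on 4 of 4 arrays), and signals of 1493 to 2240 in GO-treated against 2069 to 3395 in control cells. TRIM54 fell with a mean of -0.51 ± 0.23 (SD, n = 4; adjusted p = 0.0174 from limma, lower on 4 of 4 arrays), and signals of 83.5 to 198 against 117 to 285. The call of TRIM54 was lost without array 2 (adjusted p = 0.0726 at -0.50, lower on each array kept), without array 3 (0.0600 at -0.52) and after normexp and loess (-0.36), and after further changes neither gene was called. The adjusted p for TRIM55 and TRIM54 was 0.0663 and 0.0972 with dim probes kept, 0.281 and 0.637 without the array block, and 0.0962 and 0.125 in the plain one-sample test. The 15 genes not called lay between -0.29 and 0.35 on the log2 scale.

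**Figure D2:**
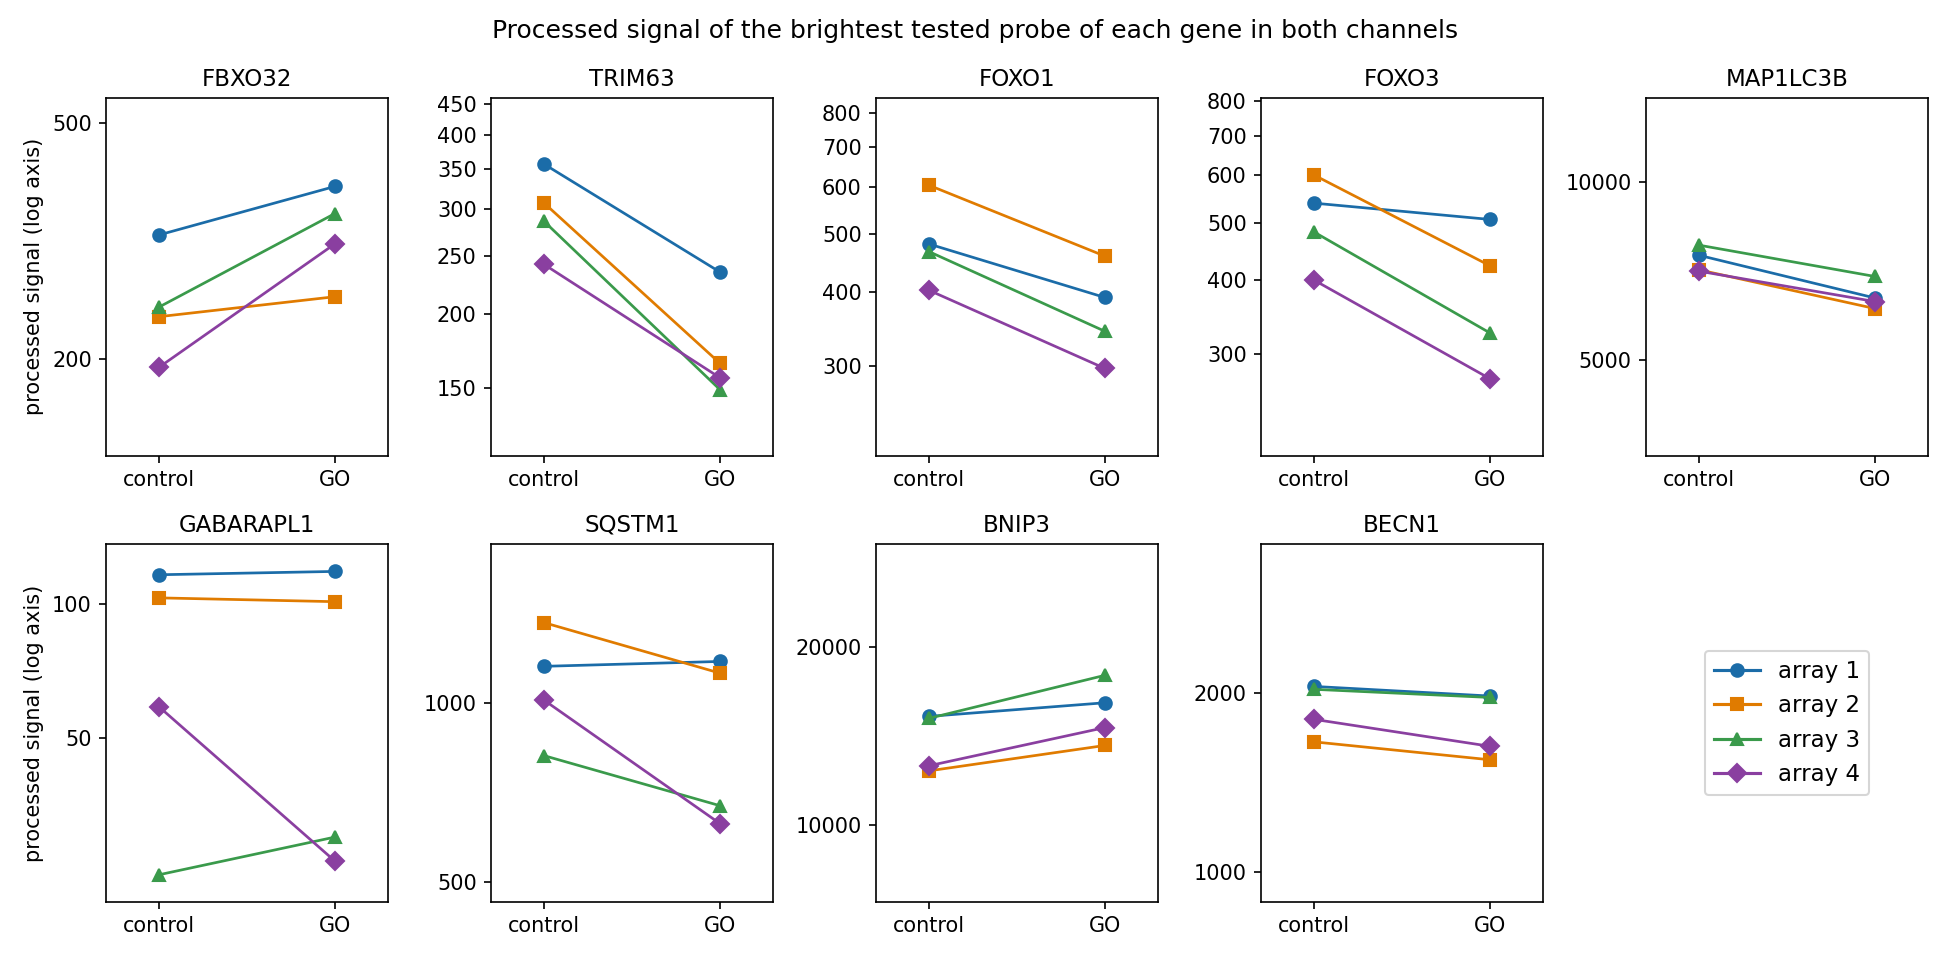
Processed signal without a unit (vertical log axis) of the brightest tested probe of each gene in control and GO-treated cells (horizontal axis), with a line for each of the 4 arrays. The TRIM63 lines all fall and its GO signals (149 to 235) lie below its control signals (242 to 357), whereas for FBXO32, FOXO1 and FOXO3 the channels overlap between arrays.

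FOXO1 and FOXO3 are the transcription factors that are known to switch on both ligase genes above in wasting muscle. FOXO1 had 1 probe, at chrUn:282106935-282106994 of EquCab1 (plus strand). It is shown because the result for FOXO1 rests on this sequence alone, and it has no capitals since no other probe shares its bases.
FOXO1 probe A_69_P040191: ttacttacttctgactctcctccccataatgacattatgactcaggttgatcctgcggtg

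FOXO1 had signals of 391, 459, 343 and 297 in GO-treated cells and 481, 604, 467 and 402 in control cells on arrays 1 to 4. The GO signal was the lower on each array, although the channels overlapped between arrays, with array 2 the highest in both. The log2 ratios of -0.30, -0.40, -0.45 and -0.44 lay close together. FOXO1 fell with a mean of -0.40 ± 0.07 (SD, n = 4), a 95% interval of -0.53 to -0.26, a fold change of 1.32 and an adjusted p = 0.00863 (limma, Benjamini-Hochberg), lower on 4 of 4 arrays. The mean was close to the fold threshold, and the call was lost after normexp and loess (-0.32), without array 3 (-0.38, adjusted p = 0.0442, just under the fold threshold) and without array 2 (-0.40, adjusted p = 0.0502, limma). It was also lost without the array block (adjusted p = 0.381) and in the plain one-sample test (adjusted p = 0.0591), at the same mean of -0.40.

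FOXO3 had 9 probes on the plus strand of chromosome 10 of EquCab1, 5 of them shifted by 1 base each. The outermost of these 5, at chr10:53239975-53240034 and chr10:53239979-53240038, are shown because all 5 read nearly the same stretch. The capitals mark the 56 bases that the 5 probes have in common.
FOXO3 probe A_69_P118825: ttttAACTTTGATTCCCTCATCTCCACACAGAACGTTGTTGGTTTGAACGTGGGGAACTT
FOXO3 probe A_69_P118821: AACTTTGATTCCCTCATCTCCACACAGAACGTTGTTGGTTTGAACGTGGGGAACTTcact

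The brightest FOXO3 probe, at chr10:53240709-53240768, gave signals of 506, 423, 326 and 273 in GO-treated cells and 539, 601, 482 and 400 in control cells on arrays 1 to 4. The channels were nearly equal on array 1 and further apart on the other arrays, and their ranges overlapped. The log2 ratios were -0.09, -0.51, -0.56 and -0.55, so array 1 stood apart from arrays 2 to 4. For this probe the mean was -0.43 ± 0.23 (SD, n = 4), with a 95% interval of -0.65 to -0.21 and a fold change of 1.35. It fell past both thresholds, with an adjusted p = 0.0271 (limma, Benjamini-Hochberg), lower on 4 of 4 arrays. The other 8 FOXO3 probes had means between -0.30 and -0.10, and 0 of them were called by limma, with 2 at an unadjusted p under 0.05. Each of these 8 was above zero on array 1, from 0.02 to 0.28, and below zero on arrays 2 to 4. Of the 8, 5 read nearly the same stretch and the rest overlap one another, so they are not separate evidence. Over all 9 probes the ratios ran from -0.51 to -0.05 on array 2, from -0.56 to -0.26 on array 3 and from -0.56 to -0.18 on array 4. Without array 1 the brightest probe gave -0.54 and 2 other probes passed both thresholds, at -0.44 (adjusted p = 0.0229, limma) and -0.39 (adjusted p = 0.0241), each lower on the 3 arrays kept. The call of FOXO3 was lost without array 2 (-0.40, adjusted p = 0.104), array 3 (-0.38, 0.0978) or array 4 (-0.39, 0.0711), after normexp and loess (-0.36), with dim probes kept (adjusted p = 0.120), without the array block (0.450), in the plain one-sample test (0.146) and as the median over its probes (-0.21, adjusted p = 0.173).

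**Figure D3:**
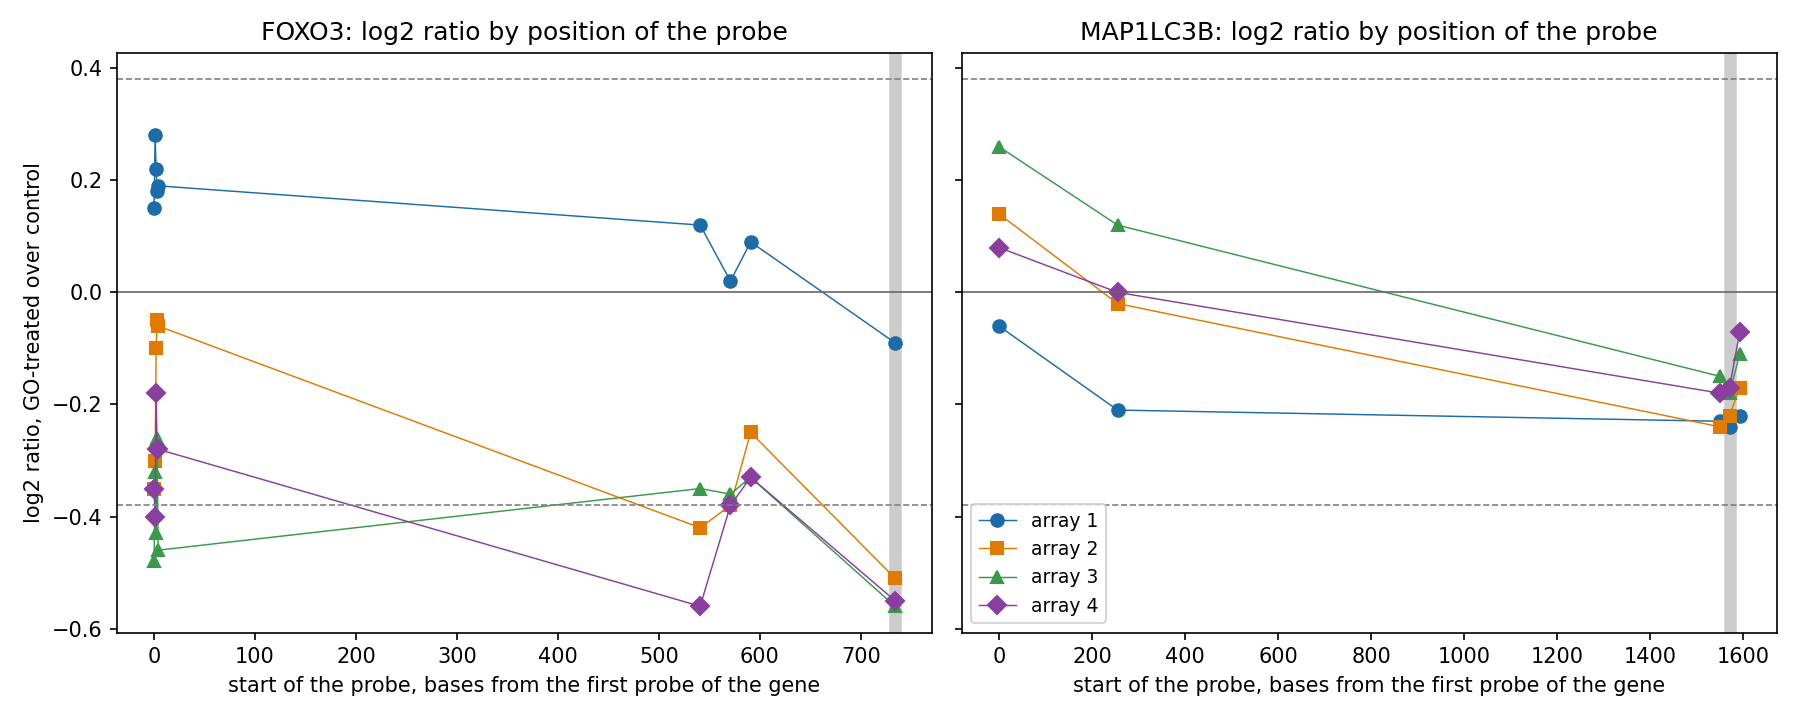
Log2 ratio, GO-treated over control (vertical axis), of each FOXO3 probe (left) and MAP1LC3B probe (right) by its start in bases from the first probe of the gene (horizontal axis), with a line for each of the 4 arrays and a grey band at the brightest probe. For FOXO3, array 1 lies above the other arrays at every probe, and for MAP1LC3B the probes at the right lie below zero on all 4 arrays.

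The list of FOXO family genes, their regulators and nutrient sensors had 26 genes, 25 with a probe and 23 tested. It holds the insulin receptor, AKT kinases, mTOR and the kinase AMPK, which pass on the signals that hold FOXO proteins back or release them. Of the 23 genes 0 were higher and 1 was lower by limma, with 8 at an unadjusted p under 0.05, and the median was -0.01. The gene called was PRKAA2, a catalytic subunit of AMPK, at -0.43, -0.15, -0.49 and -0.99 on arrays 1 to 4. It was below zero on every array, farthest on array 4, where the GO signal was 29.6. PRKAA2 had a mean of -0.52 ± 0.35 (SD, n = 4; adjusted p = 0.0405 from limma, lower on 4 of 4 arrays). It was tested through its control signal alone, since its GO signal stood well above background on 3 arrays, so no fall can be stated for it. With the filter on both channels PRKAA2 was not tested, and 0 of the 20 genes left in the list were called. The call was also lost without any 1 of arrays 1 to 4 (-0.54, -0.64, -0.52 and -0.36, adjusted p = 0.0865, 0.0504, 0.110 and 0.0595), after normexp and loess (-0.24), with array weights (-0.45), with dim probes kept (adjusted p = 0.175), without the array block (0.471) and in the plain one-sample test (0.195). FOXO4, the other FOXO gene tested and named after its value was seen, had a mean of -0.03, which was 0.01 after normexp and loess.

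FOXO target genes outside the 10 were listed as 16 genes, 14 with a probe and 10 tested. By limma 0 of the 10 were called in either direction, 3 had an unadjusted p under 0.05, and the median was -0.08. GADD45A, a stress-induced gene of growth arrest that is also known from wasting muscle, had -0.45, -0.21, -0.30 and -0.25 on arrays 1 to 4. CCNG2, a cyclin of cells that leave the cell cycle, had -0.19, -0.32, -0.21 and -0.36. Both were below zero on every array and short of the fold threshold. Their means were -0.30 ± 0.10 and -0.27 ± 0.08 (SD, n = 4), with an adjusted p = 0.0247 and 0.0292 from limma. The adjusted p was over 0.05 for GADD45A and CCNG2 without array 2 (0.0758 and 0.122), array 3 (0.0870 and 0.0854) or array 4 (0.0566 and 0.0957). After normexp and loess GADD45A was at -0.32 (limma adjusted p = 0.00893) and CCNG2 at -0.14 (0.0943), neither of them called. After median centring without lowess GADD45A was at -0.21 (0.111) and CCNG2 at -0.38 (0.0175), which was not called. With dim probes kept the limma adjusted p for GADD45A and CCNG2 was 0.0656 and 0.0595. It was 0.6 and 0.516 without the array block, and 0.0949 and 0.0893 in the plain one-sample test. As deposited, the second CCNG2 probe was at -0.13.

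BECN1 is a subunit of the lipid kinase complex that starts the autophagosome membrane. Its 1 probe, at chr11:19062742-19062801 (plus strand), had signals of 1978, 1545, 1967 and 1628 in GO-treated and 2053, 1656, 2030 and 1807 in control cells on arrays 1 to 4. The channels overlapped almost fully, and the log2 ratios were -0.05, -0.10, -0.05 and -0.15. BECN1 did not pass the test: the mean was -0.09 ± 0.05 (SD, n = 4), with a 95% interval of -0.22 to 0.05 and an adjusted p = 0.303 (limma), lower on 4 of 4 arrays. That interval lies inside the fold threshold of 0.38 in size.

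The list of autophagy initiation and nucleation, which holds the ULK kinase complex and the partners of BECN1, had 19 genes, 18 with a probe and 15 tested. By limma 0 of the 15 were called, 3 had an unadjusted p under 0.05, all 3 lower, and the median was 0.00. The lowest unadjusted p belonged to WDR45B and WIPI2, which bind the lipid that the BECN1 complex makes. WDR45B gave -0.36 ± 0.29 (SD, n = 4; adjusted p = 0.0715 from limma) and WIPI2 gave -0.19 ± 0.15 (SD, n = 4; adjusted p = 0.110), each lower on 4 of 4 arrays. WDR45B passed both thresholds after median centring without lowess, at -0.47 (adjusted p = 0.0498), but was at -0.17 (0.127) after normexp and loess and at -0.25 (0.174) without array 4.

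MAP1LC3B, or LC3B, is the ATG8 protein that is joined to lipid on the growing autophagosome and is widely used to mark it. It had 5 probes on the plus strand of chromosome 3 of EquCab1, and the outermost, at chr3:34028224-34028283, is shown because it alone had a mean above zero. It has no capitals, since no bases were singled out.
MAP1LC3B probe A_69_P127321: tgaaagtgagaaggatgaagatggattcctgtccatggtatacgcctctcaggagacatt

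The brightest MAP1LC3B probe, at chr3:34029794-34029853, had signals of 6371, 6115, 6925 and 6283 in GO-treated cells and 7517, 7105, 7818 and 7068 in control cells on arrays 1 to 4. The channels did not overlap, the highest GO signal of 6925 lying below the lowest control signal of 7068. The log2 ratios of -0.24, -0.22, -0.18 and -0.17 were close together, with a mean of -0.20 ± 0.03 (SD, n = 4) and a 95% interval of -0.33 to -0.07. This difference passed the adjusted p (0.0486, limma, lower on 4 of 4 arrays) but not the fold threshold, so MAP1LC3B was not called. Leaving out 1 array at a time gave an adjusted p of 0.0800 to 0.173, at log2 ratios of -0.21 to -0.19, and median centring without lowess gave -0.12 (0.257). The adjusted p was 0.49 without the array block (limma) and 0.058 in the plain one-sample test. Probes that overlap the brightest gave -0.20 (limma adjusted p = 0.0496) and -0.14 (0.132), both lower on 4 of 4 arrays. Because they read much of the same stretch, they are not separate evidence. A further probe gave -0.03 ± 0.14 (SD, n = 4), lower on 3 of 4 arrays, and the probe shown above gave -0.06, 0.14, 0.26 and 0.08 on arrays 1 to 4, with a mean of 0.10 ± 0.13 (SD, n = 4; adjusted p = 0.331, higher on 3 of 4 arrays). Whether the probes measure different transcripts was not tested, since no annotation of EquCab1 was used here.

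GABARAPL1 is another ATG8 protein, known as a FOXO target in muscle. Its 5 probes, on the plus strand of chromosome 6 of EquCab1, were shifted by 1 base each between chr6:37478556-37478615 and chr6:37478560-37478619. The outermost are shown because all 5 probes read the same stretch, and the capitals mark the 56 bases they share.
GABARAPL1 probe A_69_P051935: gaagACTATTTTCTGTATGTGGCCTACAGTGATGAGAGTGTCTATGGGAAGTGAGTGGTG
GABARAPL1 probe A_69_P051931: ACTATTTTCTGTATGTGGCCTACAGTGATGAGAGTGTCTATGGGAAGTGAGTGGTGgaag

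The files give these probes the symbol GABARAPL1 but describe their transcript as the related pseudogene GABARAPL3, so which copy they measure is uncertain. The brightest tested probe had signals of 118, 101, 30.1 and 26.6 in GO-treated cells and 116, 103, 24.8 and 58.8 in control cells on arrays 1 to 4. Arrays 3 and 4 were lower than arrays 1 and 2 in both channels, and the channels overlapped. The log2 ratios were 0.02, -0.03, 0.28 and -1.14, near zero on arrays 1 and 2 and of opposite sign on arrays 3 and 4. The mean was -0.22 ± 0.63 (SD, n = 4), with an adjusted p = 0.520 (limma), lower on 2 of 4 arrays, but the GO signal of this probe was well above background on only 3 arrays. With the filter on both channels 1 of the 5 probes was tested, A_69_P051931, of the opposite sign at 0.12 (adjusted p = 0.761, higher on 2 of 4 arrays). Over the 5 probes the ratios ran from 0.28 to 1.48 on array 3 and from -1.14 to -0.71 on array 4. The other tested probes had means of 0.12, 0.01 and -0.03, and the fifth, at 0.20 ± 0.94 (SD, n = 4), was not tested, being well above background on 3 arrays in each channel. The sign of the brightest probe turned without array 4, at 0.09, and the median over the probes was 0.00, so no direction can be given for GABARAPL1.

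The list of the ATG8 family and its conjugation machinery, the enzymes that join ATG8 proteins to lipid or free them again, had 14 genes, 11 with a probe and 11 tested. Of the 11 genes 0 were higher and 1 was lower by limma, 5 had an unadjusted p under 0.05, and the median was 0.11. The gene called was GABARAPL2, a further ATG8 protein, which had signals of 9866, 8253, 8282 and 6442 in GO-treated cells and 12304, 10785, 10105 and 11015 in control cells. These ranges did not overlap, and array 4 had the lowest GO signal. Its log2 ratios were -0.32, -0.39, -0.29 and -0.77. GABARAPL2 fell with a mean of -0.44 ± 0.23 (SD, n = 4) and an adjusted p = 0.0249 (limma, lower on 4 of 4 arrays), and 2 of its 3 probes were called, with means from -0.44 to -0.26. The call was lost without array 2 (-0.46, adjusted p = 0.0813), array 3 (-0.49, 0.0546) or array 4 (-0.33, 0.0403, under the fold threshold), after median centring without lowess (-0.32), with dim probes kept (adjusted p = 0.114), without the array block (0.216) and in the plain one-sample test (0.141). The 10 genes not called lay between -0.18 and 0.29.

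SQSTM1, or p62, binds ubiquitin-tagged cargo and ATG8 proteins and is itself taken down by autophagy. Its 1 probe, at chr14:1898415-1898474 of EquCab1 (minus strand), is shown because SQSTM1 was measured by this sequence alone, and it has no capitals.
SQSTM1 probe A_69_P060951: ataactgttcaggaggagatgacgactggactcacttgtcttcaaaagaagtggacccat

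SQSTM1 had signals of 1177, 1125, 673 and 628 in GO-treated cells and 1155, 1368, 817 and 1013 in control cells on arrays 1 to 4. The channels overlapped, with array 1 alike in both and array 4 the farthest apart. The log2 ratios were 0.03, -0.28, -0.28 and -0.69, with a mean of -0.31 ± 0.29 (SD, n = 4) and a 95% interval of -0.58 to -0.04. SQSTM1 did not pass the test after adjustment, at an adjusted p = 0.105 (limma), lower on 3 of 4 arrays. The mean lay between -0.42 without array 1 and -0.18 without array 4, and was not called in either case.

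BNIP3 sits in the outer membrane of mitochondria, where it marks them for autophagy, and is known as a FOXO3 target in muscle. Its probe, at chr1:1217052-1217111 of EquCab1 (plus strand), gave signals of 16084, 13631, 17889 and 14609 in GO-treated cells and 15257, 12354, 15143 and 12601 in control cells on arrays 1 to 4. The GO signal was the higher on each array, while the channels overlapped between arrays. The log2 ratios were 0.08, 0.14, 0.24 and 0.21, with a mean of 0.17 ± 0.07 (SD, n = 4) and a 95% interval of 0.03 to 0.31. BNIP3 did not pass the test after adjustment (adjusted p = 0.0933, limma, higher on 4 of 4 arrays). After median centring without lowess its value was 0.36 (adjusted p = 0.0219), still short of the fold threshold.

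Selective autophagy receptors other than these formed a list of 14 genes, all 14 tested. By limma 0 of the 14 were called, 2 had an unadjusted p under 0.05, and the median was 0.03. Both of those were higher on 4 of 4 arrays. NCOA4, the receptor for the iron store ferritin, had 0.27, 0.15, 0.23 and 0.21 on arrays 1 to 4, a mean of 0.21 ± 0.05 (SD, n = 4; adjusted p = 0.0437 from limma) that was short of the fold threshold. NCOA4 had an adjusted p of 0.0763 to 0.146 with 1 array left out at a time, and was at 0.12 (0.111) after normexp and loess. Its limma adjusted p was 0.0928 after median centring without lowess and 0.475 without the array block. In the plain one-sample test it was 0.0739. FKBP8, a mitochondrial receptor, had 0.81, 0.39, 0.14 and 0.23, a mean of 0.39 ± 0.30 (SD, n = 4; adjusted p = 0.0577), highest on array 1. With the filter on both channels FKBP8 passed both thresholds at the same 0.39 (adjusted p = 0.0497), but it was under the fold threshold after normexp and loess (0.21, adjusted p = 0.0384) and without array 1 (0.25, 0.0753).

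Cargo is broken down in lysosomes, and 32 genes of the lysosome and of its fusion with autophagosomes were listed, 29 with a probe and 23 tested. Of the 23 genes 1 was higher and 2 were lower by limma, 5 had an unadjusted p under 0.05, and the median was 0.01. VAMP8, a membrane protein that fuses autophagosomes with lysosomes, had log2 ratios of 0.58, 0.48, 0.49 and 0.21 on arrays 1 to 4. CTSA, a lysosomal carboxypeptidase, had -0.35, -0.42, -0.49 and -0.43, and CTSS, a cysteine protease known mainly from antigen-presenting cells, had -0.54, -0.23, -0.86 and -0.30. VAMP8 was above zero and both cathepsins were below zero on every array, with CTSS the most uneven between arrays.

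VAMP8 rose with a mean of 0.44 ± 0.16 (SD, n = 4; adjusted p = 0.0142 from limma, higher on 4 of 4 arrays), and its signals of 1930 to 2458 in GO-treated cells lay above those of 1459 to 1768 in control cells. CTSA fell with a mean of -0.42 ± 0.06 (SD, n = 4; adjusted p = 0.00676 from limma, lower on 4 of 4 arrays), and its signals of 7127 to 8014 lay below those of 9612 to 10719. Neither gene's channels overlapped. CTSS fell with a mean of -0.48 ± 0.29 (SD, n = 4; adjusted p = 0.0313 from limma, lower on 4 of 4 arrays), with both of its probes called, and its channels overlapped at 1516 to 2058 and 1774 to 3740. The call of VAMP8 was lost without array 2 (0.43, adjusted p = 0.0673) or array 3 (0.42, 0.0584), and that of CTSS without array 1 (-0.46, 0.0838), array 2 (-0.57, 0.0570) or array 3 (-0.36, 0.0744). With dim probes kept VAMP8 (adjusted p = 0.0712) and CTSS (0.143) were not called. CTSA kept its call without each array in turn and was under the fold threshold after median centring without lowess (-0.34). CTSA, VAMP8 and CTSS were not called without the array block (adjusted p = 0.0879, 0.123 and 0.398) or in the plain one-sample test (0.0505, 0.101 and 0.166).

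Over the 7 pathway lists, 113 of 144 genes were tested and 7 were called, 1 higher and 6 lower, with a median of 0.00. The 6 include PRKAA2, which was tested through its control signal alone. That is beside 824 of 9501 genes over the whole array, with the same median of 0.00. By limma 33 of the 113 (29.2%) had an unadjusted p under 0.05, beside 34.7% of all genes. After median centring without lowess 3 were higher and 6 lower, and with the filter on both channels 2 were higher and 5 lower. The count was 2 without array 2, 2 without array 3 and 1 with dim probes kept. It was 0 in the plain one-sample test, and 0 in limma without the array block, with 26 (23.0%) and 9 (7.96%) of the 113 at an unadjusted p under 0.05, beside 26.2% and 11.2% of all genes in those fits.

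**Figure D4:**
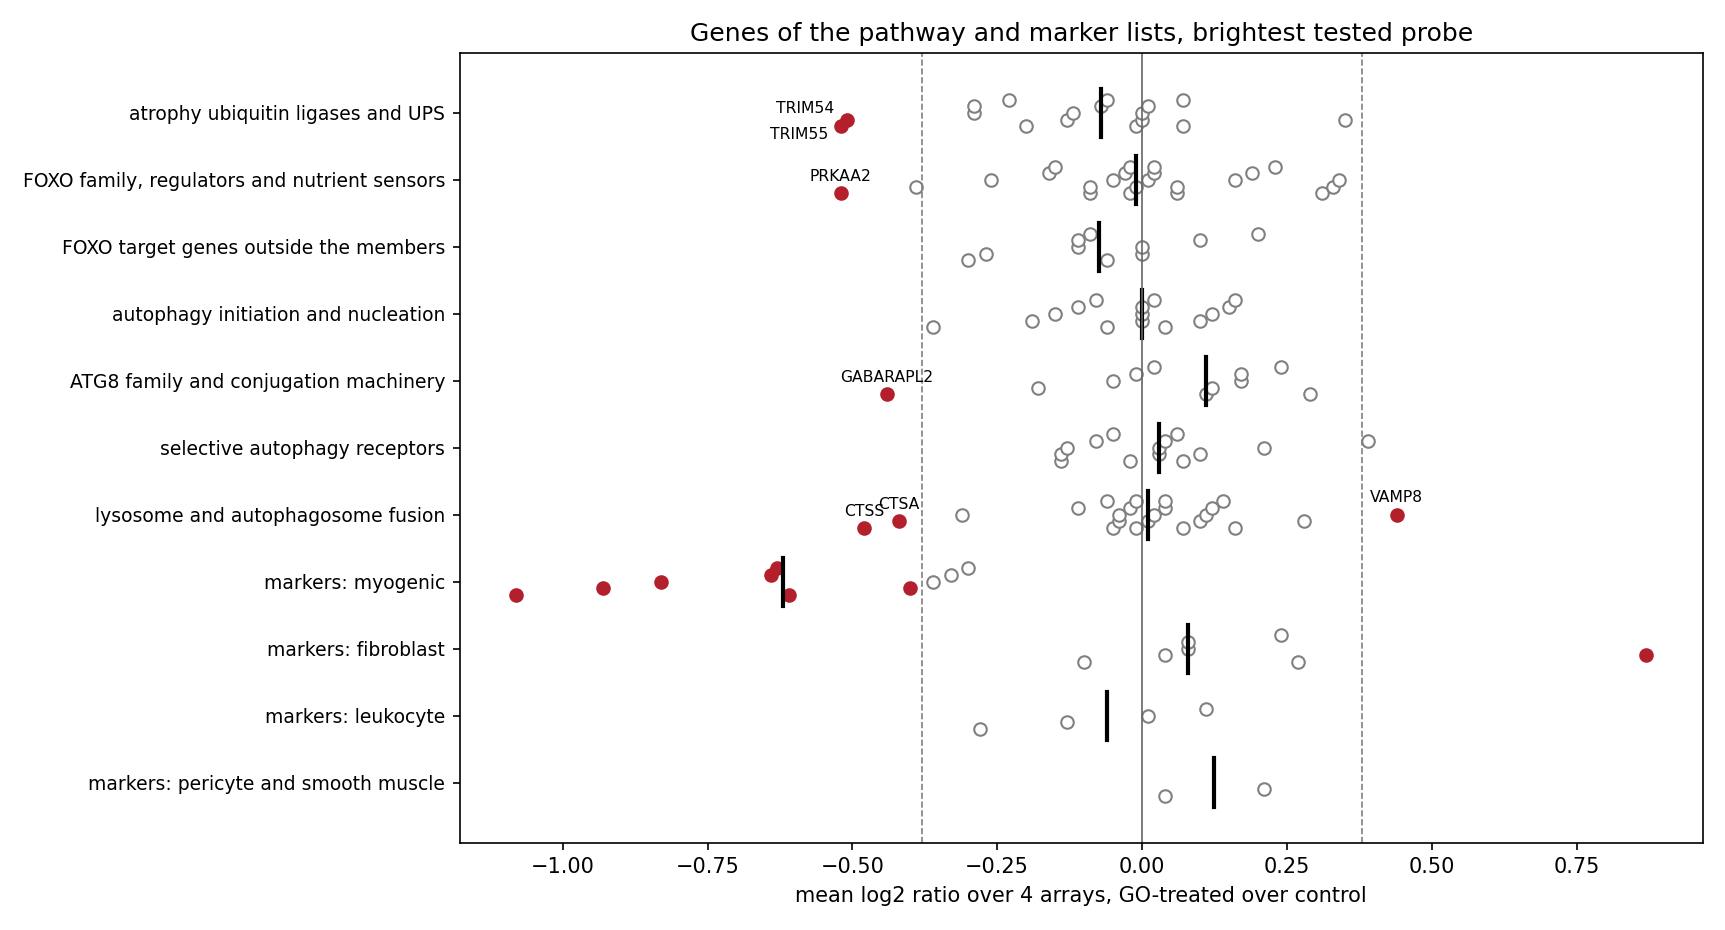
Mean log2 ratio over 4 arrays, GO-treated over control (horizontal axis), of every tested gene in each pathway or marker list (vertical axis), with called genes filled and named for the pathway lists, a bar at the median and dashed lines at 0.38 and -0.38. The pathway medians lie between -0.08 and 0.11, whereas the myogenic markers all lie below zero with a median of -0.62.

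TRIM63, TRIM55, TRIM54 and FBXO32 are known as genes of muscle fibres, so the muscle markers are given beside them. Over all tested genes 8.67% were called, with 5.37% lower. Of the 10 myogenic markers tested 7 were called, all 7 lower in GO-treated cells, and 10 of 10 had a mean below zero. The median was -0.62, and array by array it was -0.29, -0.64, -0.71 and -0.67. The summed signal of the 10 was 254122, 268660, 242123 and 183986 in GO-treated cells and 303076, 379176, 385893 and 284098 in control cells on arrays 1 to 4, lower with GO on each array. The brightest genes weigh most in this sum, among them MYH3 (47416 with GO on array 1) and ACTA1 (41091). It was taken from lowess-normalized signals only, and these 2 genes depended on that step, as given below. MYH3, the embryonic myosin heavy chain, fell with a mean of -0.83 ± 0.19 (SD, n = 4; adjusted p = 0.00338 from limma, lower on 4 of 4 arrays). The others called were MYH8 (-1.08), ACTA1 (-0.64), NCAM1 (-0.63), DES (-0.61), MYOG (-0.40) and MYF5 (-0.93), the last a regulator of early muscle cells. Of the 2 MYOG probes tested 1 was called. DES was not called without array 2 (adjusted p = 0.0545, limma, at -0.59), nor MYOG without array 2 (0.0649 at -0.38) or array 3 (0.0544 at -0.36), each lower on the arrays kept. With dim probes kept 2 of the 10 were called, without the array block 3 were, and in the plain one-sample test 1 was, MYF5. With array weights 8 were called and without array 1 all 10 were, each of them lower. After median centring without lowess the median was -0.38, 4 of the 10 were lower and 1 was higher, the cardiac actin ACTC1, which turned from -0.33 (adjusted p = 0.0460) to 0.66, and MYH3 at -0.19 and ACTA1 at -0.11 were not called. The 4 lower ones were MYH8 (-1.11), MYF5 (-0.97), NCAM1 (-0.57) and MYOG (-0.40), and TRIM63 was at -0.83. After normexp and loess 6 were lower, the median was -0.55, and ACTC1 was at 0.13. The part of the muscle markers in the results for TRIM63, TRIM55, TRIM54 and FBXO32 was not tested.

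Markers of other cell types were tested too. Of 7 fibroblast markers tested 1 was called, PDGFRA, a growth factor receptor of mesenchymal cells, which rose with a mean of 0.87 ± 0.48 (SD, n = 4; adjusted p = 0.0199 from limma, higher on 4 of 4 arrays). PDGFRA was dim, at 42.7 to 69.5 in GO-treated and 21.8 to 46.4 in control cells, and was not called without array 2 (adjusted p = 0.0741), after normexp and loess (0.37), with dim probes kept (adjusted p = 0.126), without the array block (0.156) or in the plain one-sample test (0.152). DPT at 0.27 (adjusted p = 0.0388) and FAP at 0.24 (0.0369), each higher on 4 of 4 arrays, passed the adjusted p but not the fold threshold. The median of the 7 was 0.08, and it was 0.24 after normexp and loess and 0.32 after median centring without lowess. Array by array it was 0.16, 0.13, 0.21 and 0.31, above zero on each. Their summed signal was 208971, 211117, 221555 and 174966 with GO and 220277, 215624, 233531 and 166726 in control cells. After median centring without lowess 3 of the 7 were higher, with COL3A1 at 0.78 and DCN at 0.70, against -0.10 and 0.04 as deposited. The part of the fibroblast markers in the results for the members was not tested. Of 4 leukocyte markers tested 0 were called by limma, with 1 at an unadjusted p under 0.05 and a median of -0.06. Of 2 markers of pericytes and smooth muscle 0 were called, with 0 at an unadjusted p under 0.05 and a median of 0.12.

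**Figure D5:**
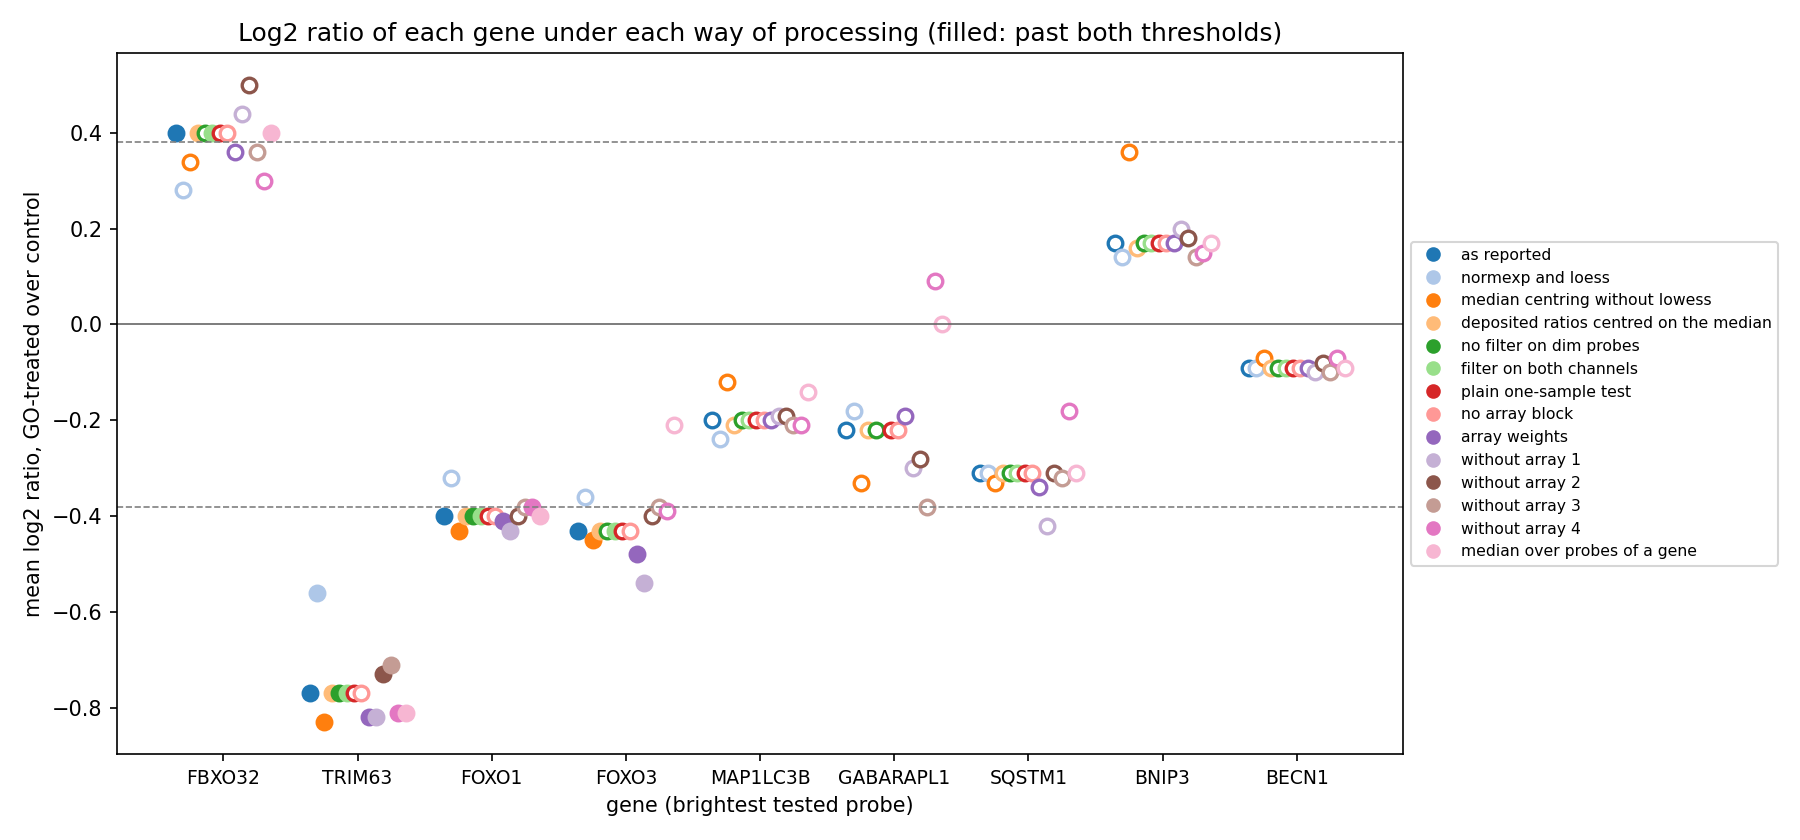
Mean log2 ratio, GO-treated over control (vertical axis), of the brightest tested probe of each gene (horizontal axis) under each way of processing (colours), filled where both thresholds were passed, with dashed lines at 0.38 and -0.38. TRIM63 lies between -0.83 and -0.56 under every setting shown, whereas FBXO32, FOXO1 and FOXO3 lie close to the fold threshold and lose their calls under many settings.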

How the data were processed

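RNA of GO-treated (Cy5) and control (Cy3) horse satellite cells was measured on 4 Agilent arrays. The authors processed the scans with Agilent Feature Extraction, whose version in the file headers differs from that in the methods. The deposited log10 ratios compare the Cy5 with the Cy3 processed signal of each spot. The deposited intensity values are, per channel, raw and background signals, their difference, and the processed signal, which is detrended and dye-normalized (linear and lowess).

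Ratios were multiplied by log2 of 10, control and outlier spots were left out, and spots of 1 probe were averaged. Probes well above background in 1 channel on all 4 arrays were tested against 0 with limma (version 3.58.1, R 4.3.3), two-sided, with Benjamini-Hochberg adjustment over 26832 probes. The prior SD was 0.144 with 3.60 degrees of freedom beside 3 residual ones. The array pairs its channels, since both RNAs were hybridized together. The thresholds (adjusted p of 0.05, fold change of 1.3) are those of the methods, but the methods name no test. At these thresholds the paper reports far fewer transcripts than the limma fit called here. Its table of identified genes holds none of the called members, so these calls are not results of the paper. Genes were counted by their brightest tested probe. Also used were data.table (version 1.17.8) and jsonlite (version 2.0.0), and the fit was tested on simulated data.

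The files gave a symbol for 24962 probes, a gene number in the RefSeq table (TB-T2T assembly, used for names only) named 1684, an accession named 436, and 16521 had no symbol. Positions are on EquCab1, whose genome and annotation were not used here. Named were all members with every probe and, of each pathway list, called genes of 1 sign on all 4 arrays (at most the 3 largest rises and 3 largest falls) or else the 2 genes of lowest p. Of marker lists, called genes were named. The members, the 7 pathway lists and the 6 marker lists (myogenic, fibroblast, adipocyte, endothelial, leukocyte, pericyte and smooth muscle) were chosen with earlier results of these data known. Alternatives were normexp (offset 50) with loess, median centring without lowess, deposited ratios centred on the median, no filter, a filter on both channels, a plain one-sample test, no array block, array weights, each array left out, and the median over the probes of a gene.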

Additional observations from a re-analysis of the deposited data

Results flagged for a closer look

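FOXO3 on array 1 was far from the other arrays at 3 of its probes, by the gap to the nearest array as a share of the range over the 4 arrays (Dixon's test, 95%). The brightest probe had a log2 ratio of -0.09 on array 1 and -0.56 to -0.51 on the others, a share of 0.881. The probe A_69_P106007 had 0.02 against -0.38 to -0.36 (0.932), and the probe A_69_P118824 had 0.28 against -0.40 to -0.30 (0.861). Of 49 probes looked at in this way 3 stood out, beside 2.45 by chance, since chance singles out about 1 in 20. All 3 belong to 1 gene, so they do not count as separate cases. The cause of the difference between array 1 and the others was not tested.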

How the results depend on the processing

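The 2399 called probes became 1297 after normexp and loess, 908 with no filter on dim probes, 147 under the plain one-sample test and 1566 to 2430 with each array left out. The 4 members called became 1, 2, 0 and 1 to 3 in the same order, and the 7 called list genes became 1 with no filter, 0 under the plain test and 2 to 6 with each array left out. With no array block, the unpaired fit of the channels as separate samples, 370 probes, 0 members and 0 list genes were called by limma. At an unadjusted p under 0.05 that fit had 2 of 8 members and 9 of 113 list genes, and the plain test had 5 and 26, beside 11.2% and 26.2% of all genes. The share of calls with a higher signal was 37.3%, but 19.7% under the plain test and 17.8% with no array block. Other settings stayed within 1.5 times these counts. The cause of these changes was not tested, and each left-out fit also had fewer arrays.

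Among the probes of the members, signs turned for dim GABARAPL1 probes and for 1 of MAP1LC3B, none of them called. In the lists ACTC1 turned from -0.33 to 0.66 and COL3A1 from -0.10 to 0.78, both called after median centring without lowess, and FOXO4 turned from -0.03 to 0.01 after normexp and loess. GABARAPL1 probe A_69_P051931 (0.12) gave -0.03 after normexp and loess and -0.17 to 0.42 with each array left out. Probe A_69_P051934 (0.01) gave -0.09 after normexp and loess, -0.14 after median centring without lowess, -0.03 with array weights, -0.06 without array 1, and -0.24 to 0.27 with each array left out. Probe A_69_P051935 (-0.03) gave 0.01 without array 2 and -0.26 to 0.24 with each array left out, and A_69_P051933 (-0.22) gave -0.38 to 0.09 and 0.00 as the median over probes. MAP1LC3B probe A_69_P082456 (-0.03) gave -0.08 to 0.03 with each array left out, the latter without array 1. Signal over background limits the GABARAPL1 values: 1 of its 5 probes passed the filter in both channels, 3 in the control channel alone, and 1 in neither.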
